A study of Mus musculus with 4 samples.

Results

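The genes described here encode the proteins that detect double-stranded RNA and carry the type I interferon response. They were 32 genes picked by gene symbol, and each matched exactly 1 of the 33793 transcript clusters on the array. In a transcript cluster the array pools all probes for 1 transcribed locus. Total RNA was taken from the whole brain of adult females on a 129SV background. Wild type is represented by 2 arrays and Adar2-/-, called Adar2 knockout here, by 2 arrays. The knockout lacks ADAR2, the enzyme encoded by Adarb1 that deaminates adenosine to inosine where RNA is double-stranded. Per the study's methods, the females of both genotypes were siblings born to parents heterozygous for Adarb1, and both were homozygous for a Gria2 allele that is already edited (Gria2 R/R), which rescues the early lethality of the knockout, so no group carried the normal Gria2 allele. The deletion was in the germline and not restricted to a cell type. The study's methods speak of RNA from 2 wild-type and 2 knockout mice, while the array labels number the replicates and do not tie them to animals, so p-values measure the spread between arrays.

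Cells read long double-stranded RNA as a sign of viral infection. The cytoplasmic helicases MDA5 and RIG-I bind such RNA and signal through MAVS, which leads to transcription of interferon beta. Secreted interferon binds its receptor and activates transcription factors such as STAT2 and IRF9, which turn on interferon-stimulated genes through a short promoter element, the interferon-stimulated response element. Inosine in double-stranded RNA weakens its recognition by these sensors, and loss of the related editing enzyme ADAR1 is known to set off the response through MDA5. In brain, most resting cells hold the response at a low level, and microglia, endothelial cells and neurons can all mount it. The comparison therefore asks whether transcripts of the sensors or of their targets differ in brain without ADAR2.

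The response element is the feature that many of these genes share in sequence, so its letters are shown before the values. Promoter windows from 250 bases before to 50 bases after a RefSeq start site (GRCm38.p6) were given for 25 of the 32 genes. The letters GAAA, any 2 bases and GAAA again, searched on both strands, were found in 14 of these 25 genes and in 3.99% of all 27025 genes with a window. The matches below are written 5′ to 3′ on the strand of the gene, and the capitals mark the matched letters or their reverse complement, TTTC, 2 bases and TTTC. Isg15 is shown for its run of overlapping matches, Ifit1 and Ifit3 as effectors, Oas3 as an enzyme that double-stranded RNA activates, Gbp2 and Rsad2 as genes whose signal is described below, and Eif2ak2 as the gene of the kinase PKR. Positions give the first capital base relative to the start site.
Isg15 (chr4:156200871-156200900, minus strand, 72 bases before the start): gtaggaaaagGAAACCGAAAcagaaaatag
Ifit1 (chr19:34640794-34640823, plus strand, 85 bases before the start): ccagtctcagTTTCAGTTTCtcactgctga
Ifit3 (chr19:34583397-34583426, plus strand, 122 bases before the start): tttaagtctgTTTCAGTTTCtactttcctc
Oas3 (chr5:120777715-120777744, minus strand, 75 bases before the start): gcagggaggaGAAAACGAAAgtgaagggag
Gbp2 (chr3:142620594-142620623, plus strand, 59 bases before the start): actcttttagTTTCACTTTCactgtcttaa
Rsad2 (chr12:26456553-26456582, minus strand, 120 bases before the start): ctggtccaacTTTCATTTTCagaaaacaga
Eif2ak2 (chr17:78882535-78882564, minus strand, base 19 of the transcript): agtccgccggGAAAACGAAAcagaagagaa
Isg15, Ifit1, Ifit3, Oas1a, Bst2 and Ifitm3 each had more than 1 match in their window, while Ifit2, Irf7, Irf9, Oasl2 and Ifi44 had none. A match is a string of letters and was not tested for binding.

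Adarb1, the targeted gene, was at a log2 signal of 10.50 and 10.45 in wild type replicates 1 and 2 and at 9.16 and 8.96 in knockout replicates 1 and 2. It was lower in the knockout by 1.42 on the log2 scale (SE 0.12, unadjusted limma p 2.57e-05, adjusted p 0.409), and the groups did not overlap. Median signals of the 4 arrays lay between 6.03 and 6.09. Neuron, astrocyte and oligodendrocyte markers, 6 of each, had mean signals from 8.62 to 13.04, above every background level given here. The table gives no detection calls. As a guide to background, 4 clusters for genes on the Y chromosome, which is absent from females, ranged from 3.49 to 4.40, and the 95th percentile of 1126 clusters of olfactory receptor genes was 5.68. Probes differ between clusters, so signals of different genes do not rank their transcript levels. Some markers of other tissues were not level between arrays. The summed linear signal of 5 salivary gland clusters was 12.97 in Adar2 knockout replicate 1, expressed as log2, against 7.29 to 7.42 on the other arrays. The same sum over 9 pituitary clusters was 10.43 to 11.21 in the knockout and 8.21 to 8.64 in wild type, with Prl and Gh higher by 4.12 and 3.17, Pomc by 0.51, and the others, among them Tshb, Fshb and Lhb, by 0.01 to 0.405. The part of these genes in the results below was not tested.

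No gene of the 32 differed between the genotypes past an adjusted p of 0.05 in limma, with p-values adjusted over all 33793 clusters, where no cluster of the array passed (0%), and 0.834 was the smallest adjusted p among them. Taken without adjustment, 1 gene, Ifnb1, had a limma p below 0.05, and it was higher in the knockout. This held for 5.95% of all clusters, 3.64% higher and 2.31% lower. A pooled-variance test without shrinkage also gave 0 past the adjusted threshold and 1 gene, Cxcl10, at an unadjusted p below 0.05. Differences, knockout minus wild type on the log2 scale, ran from -0.305 for Eif2ak2 and Rsad2 to 0.38 for Ifnb1. Of the 32 genes 20 were lower and 11 higher in the knockout, and Bst2 was equal. Their median was -0.07, beside 0.005 over all clusters, of which 47.7% were lower. All clusters above the olfactory receptor level had a median of -0.02, with 55.1% lower. Those at or below it had a median of 0.045, with 38.2% lower. After median centring, quantile normalization or cyclic loess normalization, 23 of the 32 genes were lower and 9 higher. Of 13 microglial markers 11 were also lower in the knockout, with a median of -0.10 and none past an unadjusted p of 0.05. Their summed signal, as log2, was 12.11 and 12.24 in wild type and 11.98 and 12.10 in the knockout, and the part of microglia in the differences of the 32 genes was not tested. For each of the 22 genes with a mean signal above the olfactory receptor level, the 95% interval of the difference lay within 1 on the log2 scale, that is, within a 2-fold change of signal either way. A signal near background can understate a change in transcript, so for the other 10 genes the intervals bound the signal only. The same limit holds for Ifit1, Ifit2, Rsad2 and Gbp2, whose mean was above that level in only 1 genotype. Without Adar2 knockout replicate 1, the array with salivary transcripts, the median difference of the 32 genes was -0.045. Without each other array it lay between -0.08 and -0.025. Even Adarb1 did not pass the adjusted threshold with all 4 arrays, so adjusted counts on fewer arrays cannot show whether an array mattered. In whole brain, fewer cells of a type and less RNA per cell cannot be told apart.

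**Figure D1:**
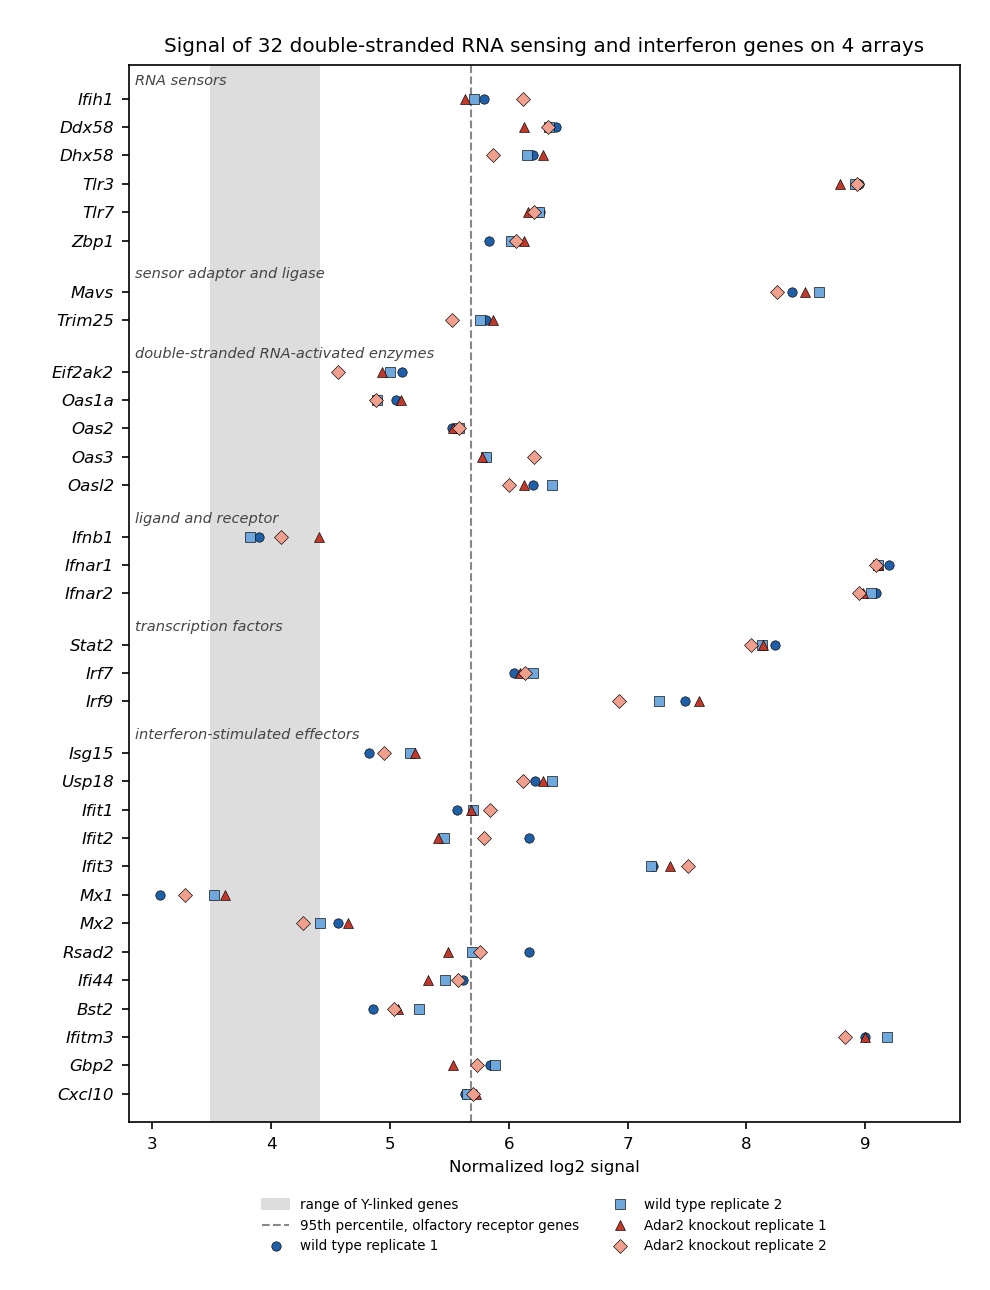
Normalized log2 signal (horizontal axis) of each of the 32 genes on the 4 arrays, grouped by role; the grey band is the range of Y-linked genes and the dashed line the 95th percentile of olfactory receptor genes. Symbols of both genotypes intermingle in most rows, and Ifnb1 and Mx1 sit at or below the upper edge of the band on every array.

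The groups did not overlap for 10 genes, 6 of them lower and 4 higher in the knockout. Over all clusters this was the case for 34.1%, with 17.7% higher and 16.5% lower, and the share of the 32 genes, 31.2%, was near that background. A stricter description asks whether the genotype means lay further apart than the arrays of either genotype did. That held for 7 genes (Ifnb1, Ifit3, Gbp2, Oasl2, Ifnar2, Tlr7 and Cxcl10), or 21.9%, beside 23.1% of all clusters (12% higher and 11.1% lower). The replicate gap had a median of 0.125 in wild type and of 0.20 in the knockout for the 32 genes, against 0.13 and 0.13 over all clusters. Irf9, Ifih1, Oas3 and Dhx58 were the genes with the widest gaps in the knockout, at 0.67, 0.49, 0.44 and 0.42. Ifit2 and Rsad2 had the widest gaps in wild type, at 0.72 and 0.48.

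**Figure D2:**
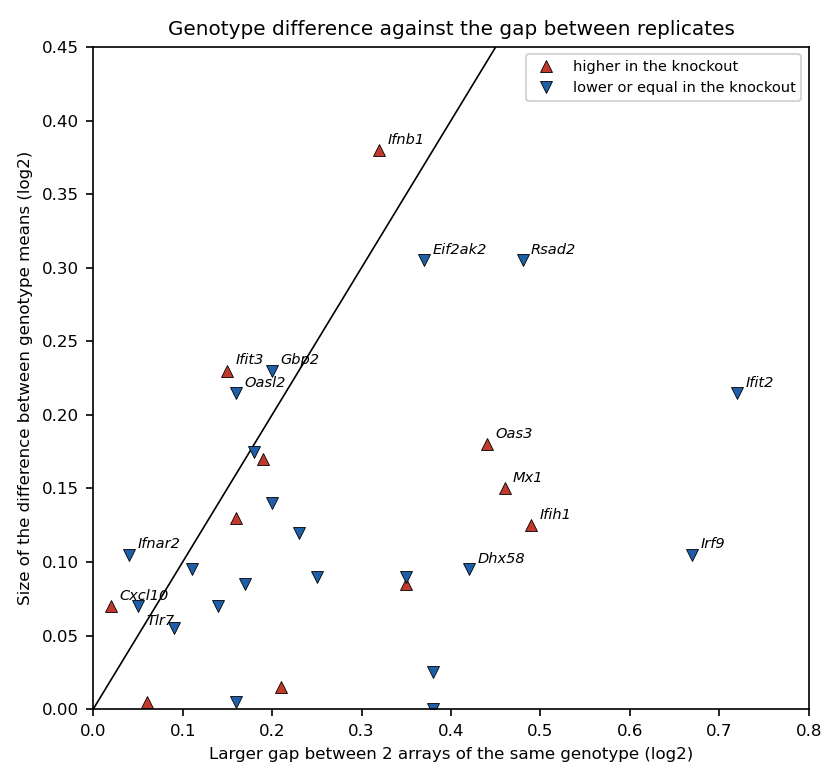
Size of the difference between genotype means (vertical axis, log2) against the larger of the gaps between arrays of the same genotype (horizontal axis, log2), 1 triangle per gene. The line marks equality; 7 of the 32 genes lie above it, Ifnb1 highest at 0.38.

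The RNA sensors were 6 genes, 4 lower and 2 higher in the knockout, with a median difference of -0.07 and none past an unadjusted p of 0.05. Ifih1 (chr2:62595793-62646255, minus strand) encodes MDA5, the helicase that binds long double-stranded RNA. It was at 5.79 and 5.71 in wild type and at 5.63 and 6.12 in the knockout. Adar2 knockout replicate 2 stood above the other arrays and replicate 1 below them, so the groups overlapped (difference 0.125, SE 0.18, unadjusted p 0.508). Without Adar2 knockout replicate 1 the difference was 0.37 with an unadjusted p of 0.0436, and without replicate 2 it was -0.12.

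Ddx58 encodes RIG-I, which recognises RNA with a 5′ triphosphate end. It was at 6.40 and 6.34 in wild type and at 6.13 and 6.33 in the knockout. The groups were separated by 0.01, the last digit given (difference -0.14, SE 0.12, unadjusted p 0.282). Without Adar2 knockout replicate 1 the difference was -0.04, and without replicate 2 it was -0.24. Dhx58 encodes LGP2, a helicase without a signalling domain that adjusts the output of the other helicases. It was at 6.20 and 6.15 in wild type and on either side of these values in the knockout, at 6.29 and 5.87. Its difference was -0.095 (SE 0.16, unadjusted p 0.575), and 0.115 without Adar2 knockout replicate 2.

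The remaining sensors were Tlr3, Tlr7 and Zbp1. Tlr3, the endosomal receptor for double-stranded RNA, was at 8.95 and 8.91 in wild type and at 8.79 and 8.93 in the knockout, a difference of -0.07 (SE 0.11). Tlr7, an endosomal receptor for single-stranded RNA that microglia express, differed by -0.07 (SE 0.10) without overlap, and its values on the 4 arrays lay between 6.16 and 6.26. The microglial markers given above were lower as well, and their part in this difference was not tested. Zbp1, a sensor of nucleic acids in the left-handed Z form, was the sensor with the largest difference, 0.17 (SE 0.12, unadjusted p 0.198).

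The adaptor Mavs, which sits on the outer mitochondrial membrane and relays signals from RIG-I and MDA5, was at 8.38 and 8.61 in wild type and at 8.49 and 8.26 in the knockout. The values of the genotypes alternated, and the difference was -0.12 (SE 0.14, unadjusted p 0.422). It was -0.005 without wild type replicate 2 or Adar2 knockout replicate 2, and -0.235 without either of the other arrays. Trim25, a ubiquitin ligase that acts on RIG-I, differed by -0.09 (SE 0.14), with Adar2 knockout replicate 2 at 5.52 and the other arrays from 5.76 to 5.87.

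The enzymes that double-stranded RNA activates directly were 5 genes, 2 lower and 3 higher. Eif2ak2 (chr17:78852550-78882573, minus strand) encodes PKR, the kinase that halts translation when it binds double-stranded RNA. It was at 5.10 and 5.0 in wild type and at 4.93 and 4.56 in the knockout. Each knockout value was under each wild-type value, but the gap between the knockout arrays, 0.37, was wider than the difference of -0.305 (SE 0.15, unadjusted p 0.0918, adjusted p 0.838). Without Adar2 knockout replicate 1 the difference was -0.49 and the unadjusted p 0.0240, and without replicate 2 they were -0.12 and 0.361, with 1 knockout array left each time.

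The oligoadenylate synthetases make the second messenger that activates RNase L, and their family showed no common direction. Oasl2, a relative of these enzymes, was at 6.20 and 6.36 in wild type and at 6.13 and 6.0 in the knockout, without overlap (difference -0.215, SE 0.12, 1.16-fold, unadjusted p 0.119). With single arrays left out the difference of Oasl2 ranged from -0.295 to -0.135. Oas3 was at 5.81 on both wild-type arrays and at 5.77 and 6.21 in the knockout, so its difference of 0.18 (SE 0.16) rested on Adar2 knockout replicate 2. Without replicate 1 it was 0.40 with an unadjusted p of 0.0295, where the only replicates left were the equal wild-type values. Oas1a and Oas2 had differences of 0.015 and 0.005, and both changed sign under the 3 other scalings.

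Ifnb1 (chr4:88522025-88522794, minus strand) encodes interferon beta, the ligand that the sensors induce. It was at 3.90 and 3.82 in wild type and at 4.40 and 4.08 in the knockout. Both knockout arrays lay above both wild-type arrays (difference 0.38, SE 0.14, unadjusted p 0.0360, adjusted p 0.834). Every array's value fell between 3.49 and 4.40, where the Y-linked genes lay, and none is set apart from background. Clusters at or below the olfactory receptor level of 5.68 were higher in the knockout as a whole, with a median of 0.045, and 5.45% of them were higher at an unadjusted p below 0.05, beside 3.64% of all clusters. After median centring, quantile normalization and cyclic loess normalization the difference of Ifnb1 was 0.34, 0.3275 and 0.335. The unadjusted limma p was then 0.0512, 0.0597 and 0.0556. Without wild type replicate 1 or replicate 2 the difference was 0.42 or 0.34, with an unadjusted p of 0.128 or 0.187. Without Adar2 knockout replicate 1 it was 0.22 (unadjusted p 0.135), and without replicate 2 it was 0.54 (unadjusted p 0.0168).

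The genes of both receptor subunits were among the 5 members with the highest signal. Ifnar1 was at 9.20 and 9.11 in wild type and at 9.11 and 9.09 in the knockout (difference -0.055, SE 0.10, 95% interval -0.31 to 0.20). Ifnar2 was at 9.09 and 9.05 in wild type and at 8.98 and 8.95 in the knockout. The genotypes did not overlap for Ifnar2 and replicates were 0.04 and 0.03 apart, yet the difference was -0.105 (SE 0.10, 1.08-fold, unadjusted p 0.344), since the fit sets this gene's own small spread against that of all clusters.

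The transcription factors Stat2, Irf9 and Irf7 were all lower in the knockout by at most 0.105, with unadjusted p from 0.421 to 0.966. Stat2 and Irf9 form the complex that binds the response element, and Irf7 amplifies interferon transcription. Irf9 was at 7.48 and 7.26 in wild type and at 7.60 and 6.93 in the knockout, with the highest and the lowest value both in the knockout. Without single arrays its difference ranged from -0.44 to 0.23. Stat2 had a difference of -0.095 (SE 0.11), and Irf7 of -0.005 (SE 0.11), with values from -0.085 to 0.075 when single arrays were left out.

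The effectors, 13 genes that interferon induces, were lower in 7, higher in 5 and equal in 1, with a median of -0.025. None passed an unadjusted p of 0.05. Without Adar2 knockout replicate 2 the median was 0.02. Ifit3, whose protein binds viral RNA together with other IFIT proteins, was at 7.21 and 7.20 in wild type and at 7.36 and 7.51 in the knockout. The groups did not overlap (difference 0.23, SE 0.11, 1.17-fold, unadjusted p 0.0832), and the file marks this cluster, alone among the 32, as having probes that can cross-hybridize. Its relative Ifit1 had a difference of 0.13 (SE 0.12). Ifit2 was at 6.17 and 5.45 in wild type and at 5.40 and 5.79 in the knockout, so the wild-type arrays lay further apart than the genotypes.

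Gbp2, an interferon-induced GTPase, was at 5.84 and 5.88 in wild type and at 5.53 and 5.73 in the knockout. Both knockout arrays were lower (difference -0.23, SE 0.12, 1.17-fold, unadjusted p 0.0992). Without Adar2 knockout replicate 2 the difference was -0.33 and the unadjusted p 0.0496, and without replicate 1 they were -0.13 and 0.289. Rsad2 encodes viperin, an antiviral enzyme. It was at 6.17 and 5.69 in wild type and at 5.49 and 5.76 in the knockout, and its difference of -0.305 (SE 0.19, unadjusted p 0.162) was -0.065 without wild type replicate 1. Ifitm3, which blocks virus entry at membranes and is also found in endothelial cells, was at 9.0 and 9.18 in wild type and at 9.0 and 8.83 in the knockout. Its groups touched at 9.0 (difference -0.175, SE 0.12, unadjusted p 0.210), and without single arrays the difference ranged from -0.265 to -0.085. The 9 endothelial markers had a median of -0.02, with 4 higher and 5 lower.

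Isg15, the ubiquitin-like protein that is among the most strongly induced targets of interferon, was at 4.82 and 5.17 in wild type and at 5.21 and 4.95 in the knockout, with overlapping groups (difference 0.085, SE 0.16, 95% interval -0.32 to 0.49). Usp18, the protease that removes ISG15 and dampens receptor signalling, differed by -0.085 (SE 0.12). Bst2, which tethers budding virus to the cell, had the same mean of 5.05 in both genotypes, and was lower in the knockout by 0.04 after median centring. The chemokine gene Cxcl10 was at 5.63 and 5.65 in wild type and at 5.72 and 5.70 in the knockout, a small difference of 0.07 (SE 0.10) with no overlap. Ifi44 differed by -0.09 (SE 0.13) with overlapping groups. Mx1 and Mx2, dynamin-like GTPases, had mean signals of 3.37 and 4.47. These lay below and just above the upper end of the Y-linked range, with differences of 0.15 and -0.025.

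**Figure D3:**
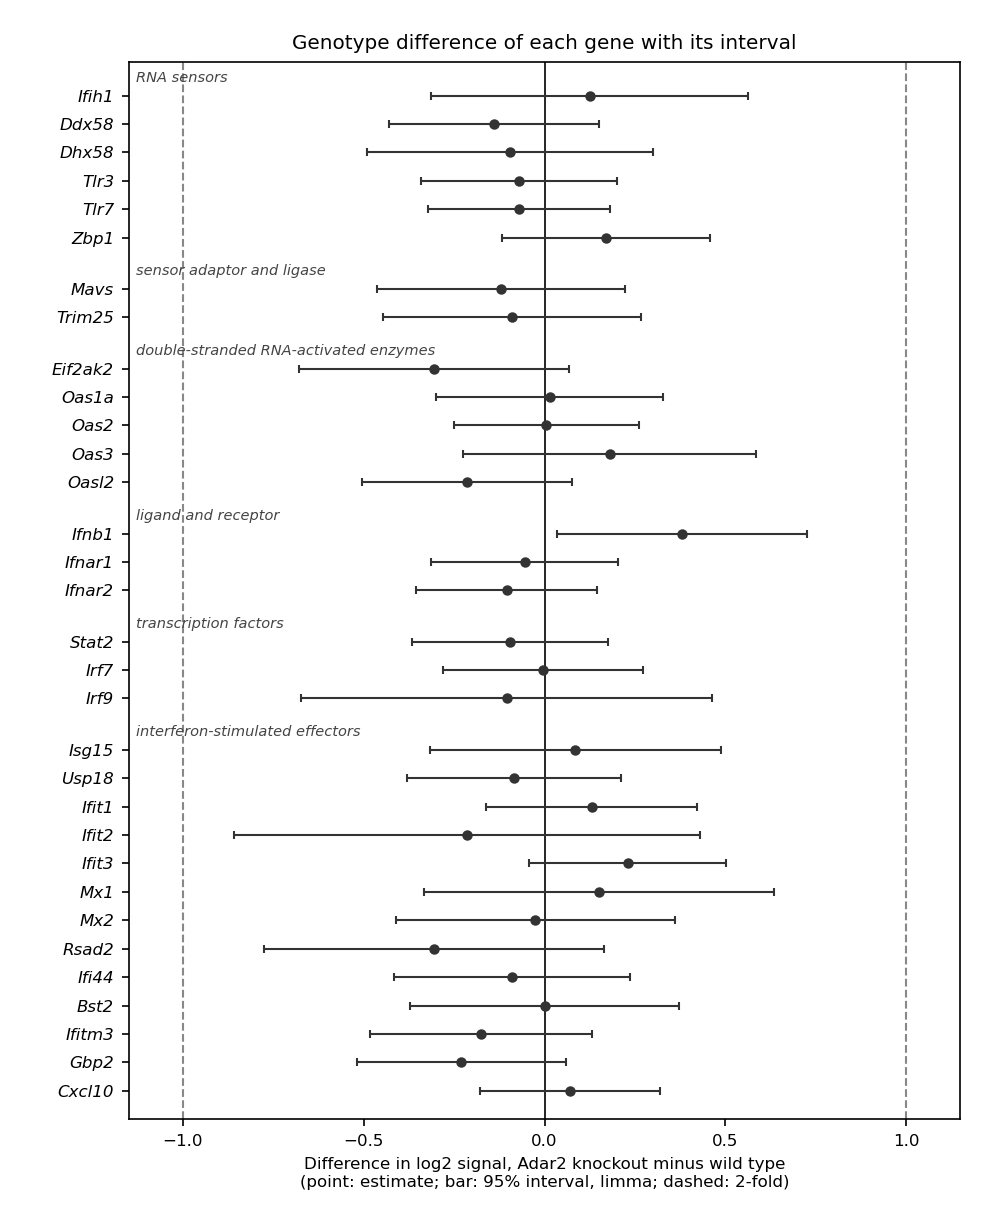
Difference in log2 signal, knockout minus wild type (horizontal axis), with its 95% interval from limma, for each of the 32 genes grouped by role. Every interval lies between the dashed lines at a 2-fold change of signal, which bounds no transcript change for the 10 genes near background, and 31 of them include 0, the exception being Ifnb1.

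Background limits which of these genes can be read. Of the 32 genes 22 had a mean signal above the olfactory receptor level of 5.68, and 10 did not (Eif2ak2, Oas1a, Oas2, Ifnb1, Isg15, Mx1, Mx2, Ifi44, Bst2 and Cxcl10). Ifit2, Rsad2 and Gbp2 were above it through their wild-type mean, with knockout means of 5.595, 5.625 and 5.63, and Ifit1 through its knockout mean, with a wild-type mean of 5.63. The direction of these 4 genes is therefore tied to the level, and no count over the 22 genes is read as a result.

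Genes with and without the response element letters were set side by side. The 14 genes with a match had differences from -0.305 to 0.23, with 7 higher, 6 lower and 1 equal, and a median of 0.0075. Their median signal was 5.80 and 5.71 in wild type and 5.66 and 5.80 in the knockout, so the genotypes overlapped. The 11 genes with a window but no match included the receptor subunits, Tlr3 and Mavs, and also Ifit2, Irf7, Irf9, Oasl2, Ifi44 and Trim25. They were lower in 10 cases and higher in 1, Ifnb1, with a median of -0.09. The median of the mean signals was 5.76 with a match and 6.17 without. Over all clusters the median difference was -0.02 above the olfactory receptor level and 0.045 at or below it. The part of signal level in this contrast was not tested. The shorter string GAAA, any 2 bases and GAA was present in 16 of the 25 genes and in 9.76% of all genes, and genes with it had a median of -0.045.

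Other genes of the pathway were described from a further list of 95, of which 83 were found, in 92 clusters. No cluster passed an adjusted p of 0.05 (lowest 0.831), and 10, or 10.9%, passed an unadjusted p of 0.05, 5 higher and 5 lower (5.43% each), beside 5.95% of all clusters, 3.64% higher and 2.31% lower. The list was chosen with results of these data known. With the replicate number as a block the count of 10 became 5, and the share over all clusters in that fit is not given. Adar, the gene of the editing enzyme ADAR1, itself induced by interferon, differed by -0.07 (SE 0.12).

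Ccl5, a chemokine that attracts T cells, was at 6.13 and 6.18 in wild type and at 6.58 and 6.67 in the knockout. The groups were well separated (difference 0.47, SE 0.11, 1.39-fold, unadjusted p 0.00463, adjusted p 0.834), and the unadjusted p stayed below 0.05 in all 15 alternatives, between 0.0025 and 0.0311. The 10 lymphocyte markers had a median of 0.055, with 8 higher and 2 lower, and a summed signal, as log2, of 8.69 and 8.72 in wild type and 8.73 on both knockout arrays. Only 2 of these markers had a mean above the olfactory receptor level, Cd4 (difference -0.29, unadjusted limma p 0.0397) and Nkg7 (difference 0.125). The part of lymphocytes in the difference of Ccl5 was not tested. Tmem173, which encodes STING, the adaptor of DNA sensing, was at 6.65 and 6.70 in wild type and at 6.43 and 6.40 in the knockout (difference -0.26, SE 0.10, unadjusted p 0.0453). Parp9 and Ifitm1, both induced by interferon, had differences of -0.36 (SE 0.12) and -0.355 (SE 0.11), and Ifitm2 and Oas1c had -0.325 and 0.32, with unadjusted p from 0.0222 to 0.0481 for these 4 genes. The unadjusted p was below 0.05 in 10 of 14 alternatives for Parp9 and for Ifitm1, in 9 of 15 for Tmem173, in 7 of 13 for Ifitm2 and in 4 of 13 for Oas1c. Ifitm2 and Oas1c had mean signals of 4.59 and 4.87, below the olfactory receptor level, and their differences were as small as -0.21 and 0.19 in alternatives. The 37 clusters of interferon-stimulated genes outside the 32 were 17 higher and 20 lower, with a median of -0.005.

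The interferon genes themselves were 16 clusters besides Ifnb1, 13 higher and 3 lower in the knockout, with a median of 0.13. After median centring 12 were higher and the median was 0.09. Their median signal was 4.81 and 4.94 in wild type and 5.03 and 5.10 in the knockout, and 11 of the 16 lay at or below the olfactory receptor level, whose own genes had a median of 0.055. Ifna5, an interferon alpha gene, was at 7.47 and 7.63 in wild type and at 8.29 and 8.18 in the knockout (difference 0.685, SE 0.12, 1.61-fold, unadjusted p 0.00118, adjusted p 0.831). Both knockout arrays were higher, and the unadjusted p was below 0.05 in all 14 alternatives that include the cluster. The file marks its probes as able to cross-hybridize, and the interferon alpha genes are near-identical copies, so the value cannot be assigned to Ifna5 alone. Ifna4 and Ifna9 had differences of 0.285 and 0.49, and Ifnk of -0.335, with unadjusted p from 0.0263 to 0.0499. On every array Ifna9 and Ifnk were at or below 4.40, the upper end of the Y-linked genes, so they are not set apart from background. The unadjusted p was below 0.05 in 8 of 15 alternatives for Ifna4, in 4 of 13 for Ifna9 and in 9 of 13 for Ifnk.

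**Figure D4:**
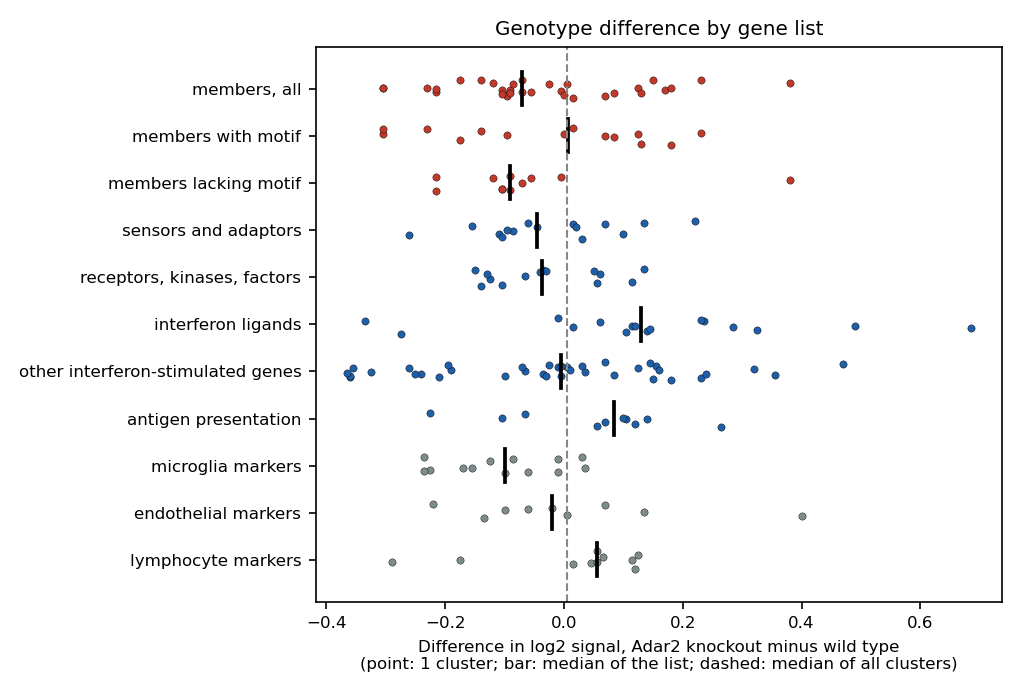
Difference in log2 signal, knockout minus wild type (horizontal axis), of single clusters by gene list, with the median of each list as a bar and the median of all clusters, 0.005, as a dashed line. The 32 genes and their interferon-stimulated relatives spread to both sides of 0, and the point at 0.685 among the interferon ligands is Ifna5.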

How the data were processed

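Total RNA from whole brains was hybridized to Affymetrix GeneChip arrays, 2 wild-type and 2 Adar2 knockout. The authors deposited 1 table of normalized log2 signals per transcript cluster and array, and the submitters' processing notes name Affymetrix Expression Console and RMA, without versions. Its further columns hold group averages, log ratios, fold changes and p-values of the authors' own comparison, which were not used here. The genome build of the cluster coordinates is not given in the sources used here; all 32 member clusters overlapped their genes' RefSeq spans in GRCm38.p6. Gene symbols are those of the table.

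Arrays were grouped by the labels' genotype. Knockout minus wild type was tested on the log2 scale by the moderated two-sided test of limma (version 3.58.1, R version 4.3.3; prior SD 0.125), with Benjamini-Hochberg adjustment over all 33793 clusters and a threshold of 0.05. Errors are the fit's SE, with n = 2 arrays per genotype. An exact permutation test of 2 against 2 arrays cannot go below p = 0.333 and was not used. The number of arrays limits the precision. Non-overlap means that both arrays of one genotype lay above both of the other. The 32 genes, the further pathway list and the cell type markers were chosen with earlier results of these data known, so lists are described by counts and medians beside those over all clusters, with no test of a list. Genes given in detail were the sensors Ifih1, Ddx58 and Dhx58 with Mavs, Eif2ak2 and Ifnb1, genes without overlap and with a difference of at least 0.2, and the 5 with the highest signal; others are named to account for all members. Of the table's clusters 4954 are marked as able to cross-hybridize. Promoter windows came from RefSeq GRCm38.p6. No window was matched for Dhx58, Tlr7, Zbp1, Oas2, Usp18, Mx1 and Mx2. The alternatives were other normalizations, filters on dim clusters, a replicate block, each array left out, other variance models, removal of clusters that can cross-hybridize, and 1 cluster per gene. The fit was also run on simulated data with known changes larger than any difference among the 32 genes. Their spread was drawn from the fit's own prior, so this run does not bear on differences as small as those given. Tables and figures used Python 3.11.15, pandas 2.3.3 and matplotlib 3.10.9.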

Additional observations from a re-analysis of the deposited data

How the results depend on the processing

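Among the 15 alternatives, no member passed the adjusted threshold in those that kept all 4 arrays. No cluster of the array passed it in the main fit, so these counts do not show that the result is stable. The count at an unadjusted p below 0.05, 1 in the report, was 0 after median centring, quantile or cyclic loess normalization, 0 among the 14 members above the median signal and 0 among the 22 above the olfactory receptor level; it ran from 0 to 3 with single arrays left out. Genes without overlap numbered 5 among those 14, and leaving out 1 array gave 15 to 23, where a lone array overlaps less easily by construction. Among the other pathway clusters the unadjusted count was 10 of 92. It was 4 of the 47 above the median signal and 7 of the 57 above the olfactory receptor level. With the replicate block it was 5, and with the pooled-variance test 6. In the main limma fit 4.59% of all clusters above the olfactory receptor level had an unadjusted p below 0.05, beside 5.95% of all clusters. Shares over all clusters under the alternatives are not given, so the counts in this paragraph are not read against background. The member median stayed between -0.11 and -0.025. With the replicate block, 1 member, Ifnb1, had an unadjusted p below 0.05 (0.0384) and 10 did not overlap; deviations of arrays sharing a number correlated at 0.0516, so the numbers were not read as pairs. Of 188 values for 13 genes given in detail, 176 stayed on their side of the threshold without reversing (1 of them, Tlr3 without Adar2 knockout replicate 1, was 0), 7 of Ifnb1 lost it, and 3 gained it (Ifih1 0.37 and Eif2ak2 -0.49 without Adar2 knockout replicate 1, Gbp2 -0.33 without replicate 2). Ifih1 (-0.12) and Dhx58 (0.115) reversed without Adar2 knockout replicate 2. With single arrays left out, Ifih1 ranged from -0.12 to 0.37 and Dhx58 from -0.305 to 0.115. The shorter motif matched 16 genes in place of 14. The cause of these shifts was not tested. Members near background cannot be read as expressed. Where an array was left out, its genotype had 1 array, which was assumed to vary like the other genotype.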

Other observations

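Antigen presentation genes, a further set that interferons induce, were 10 clusters, 7 higher and 3 lower in the knockout, with a median difference of 0.085 on the log2 scale and none past an adjusted p of 0.05 in limma. Sensors and adaptors outside the 32 genes were 15 clusters, 7 higher and 8 lower, with a median of -0.045. The other receptors, kinases and transcription factors of the pathway were 14 clusters, 5 higher and 9 lower, with a median of -0.038. Neutrophil and monocyte markers, 6 genes, were 2 higher, 3 lower and 1 equal. Their summed signals, as log2, were 8.01 and 8.06 in wild type and 7.98 on both knockout arrays. Only 1 of them, Ly6c2, had a mean above the olfactory receptor level, and its cluster is marked as able to cross-hybridize.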
